A study of Mus musculus with 24 samples.

Results

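Complement is a set of plasma proteins, membrane regulators and receptors, and 9 of its genes were examined here in liver macrophage preparations of mice: the 3 chains of the recognition protein C1q (C1qa, C1qb, C1qc), the central component C3, the alternative pathway factors Cfb and Cfp, the surface regulator Cd55, and the receptors C5ar1 and C3ar1. Array entries were chosen by gene symbol through the platform's probe annotation, taking the entry with the highest mean where a symbol had several. Of the 9 genes, 8 were paired with 1 of the 22206 transcript clusters tested, a cluster being the probes that the array summarises as one transcript. C3 was not named by the annotation and was not analysed here. A further 49 complement genes were listed as context, and 46 of them had a cluster.

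F4/80-positive cells, enriched from collagenase-treated livers on a density gradient and selected with magnetic beads, were profiled on 24 Clariom S arrays, 3 in each of 8 groups. All animals were C57BL/6 mice, male per the study's methods. The groups were intact animals; SE, in which the spleen alone was removed; LR, at 24 h, 3 days and 7 days after resection of 70% of the liver; and LR+SE, at the same times after a resection that followed splenectomy by 7 days. The control is labelled intact, whereas the methods describe sham surgery, so whether it had an operation is not settled. Each preparation pooled several mice, and the mice listed were too few for 3 separate pools of that size in every group. The p-values therefore measure the spread between these preparations, part of which may be technical.

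Complement can be started by C1q bound to antibody or debris (the classical pathway), by lectins bound to sugars, or by spontaneous C3 turnover (the alternative pathway). All routes cleave C3 and then C5, releasing the small peptides C3a and C5a, which act on C3ar1 and C5ar1. Hepatocytes make most circulating complement, while macrophages, Kupffer cells among them, are a main source of C1q and also make properdin, the product of Cfp. Complement has been implicated in mouse liver regeneration.

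Values are log2 signals as deposited, between 1.92 and 19.93 over all clusters, so a difference of 1 is a doubling where the scale is not compressed. Near the top it is: the median SD within groups was 0.15 for clusters with a mean above 19. It was 0.47 between 18 and 19 and 0.53 between 16 and 18. C1qb (mean 19.10 over the 24 arrays) lies above 19, and its differences may be understated. Cfp (18.67) lies below that on average, but its mean was above 19 in some groups, such as LR 7 days (19.45). Differences of Cfp that involve those groups may be understated too. Signal of the Y-linked genes (mean of Uty, Kdm5d and Eif2s3y) was below the background level of 3.69 on 5 arrays: all those of the intact group (2.60 to 3.08), LR+SE 3 days replicate 1 (2.63) and LR 7 days replicate 2 (2.68). The other 19 arrays read 6.75 to 8.78. These 5 arrays go against the stated sex of the mice, and calls against intact are given also with Y-linked signal as a block. As every intact array lacks this signal, the block is estimated only from LR 7 days replicate 2 and LR+SE 3 days replicate 1, each against the other 2 arrays of its group. The mean of 9 Kupffer cell markers lay between 14.24 and 17.43 on every array. That of 11 hepatocyte markers ran from 8.40 to 15.62, highest on replicate 2 of LR+SE 3 days, where the Kupffer cell mean was lowest. In such bulk preparations fewer cells of a type and less RNA per cell cannot be told apart.

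The promoters of the genes whose signals moved together are shown first. Each sequence is the 250 bases before the annotated start, 5′ to 3′ on the gene's strand, from RefSeq (GRCm38.p6). Of the 8 genes, 6 had an entry in the promoter table, and C1qa and Cfb did not. In the gene order of RefSeq C1qb, C1qc and C1qa are neighbours, as are Cd55b and Cd55, with Cd55os between them.

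C1qb and C1qc are shown because their signals differed together between groups. Capitals mark the letters AGGAAGT, searched on both strands, a core recognised by ETS factors such as PU.1, a regulator of macrophage genes. It was chosen after the sequences were seen.
C1qb (chr4:136886201-136886450, minus strand): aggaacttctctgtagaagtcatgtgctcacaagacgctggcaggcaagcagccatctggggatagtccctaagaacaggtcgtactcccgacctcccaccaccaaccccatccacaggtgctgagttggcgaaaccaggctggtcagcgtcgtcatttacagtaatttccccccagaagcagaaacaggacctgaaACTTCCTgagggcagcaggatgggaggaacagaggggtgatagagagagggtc
C1qc (chr4:136892915-136893164, minus strand): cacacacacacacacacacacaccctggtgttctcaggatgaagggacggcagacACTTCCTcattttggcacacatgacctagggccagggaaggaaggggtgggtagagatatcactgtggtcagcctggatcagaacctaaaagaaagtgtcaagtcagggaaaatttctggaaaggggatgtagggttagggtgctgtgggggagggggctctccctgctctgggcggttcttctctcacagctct
The match began 53 bases before the start in C1qb and 195 bases before it in C1qc, on the opposite strand in both. C5ar1 held 2 matches, and Cd55, Cfp and C3ar1 held none in this window. The same letters occur in 7.7% of the 32851 promoters of the same length searched, and a match is only a match of letters.

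Cd55 and Cd55b, its neighbouring paralog, are shown because they had nearly the same pattern over the arrays. Capitals mark the stretches of at least 10 bases that the pair shares in an end-to-end alignment.
Cd55 (chr1:130462745-130462994, minus strand): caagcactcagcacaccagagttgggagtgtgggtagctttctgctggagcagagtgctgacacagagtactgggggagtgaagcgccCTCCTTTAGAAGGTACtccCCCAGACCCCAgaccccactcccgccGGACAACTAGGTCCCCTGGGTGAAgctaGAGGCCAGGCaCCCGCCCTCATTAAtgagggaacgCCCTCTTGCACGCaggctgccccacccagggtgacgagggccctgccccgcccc
Cd55b (chr1:130423044-130423293, minus strand): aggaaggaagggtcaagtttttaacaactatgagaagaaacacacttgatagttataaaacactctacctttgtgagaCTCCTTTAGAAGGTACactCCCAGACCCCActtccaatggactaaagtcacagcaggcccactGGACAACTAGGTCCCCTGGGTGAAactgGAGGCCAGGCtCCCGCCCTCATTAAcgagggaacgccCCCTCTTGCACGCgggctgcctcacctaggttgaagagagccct
The pair shared 6 such stretches, 88 bases in all and the longest of 24, and 169 aligned bases were identical. Whether the probes of either gene also capture the other's transcript was not examined, so the 2 signals may not be independent.

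**Figure D1:**
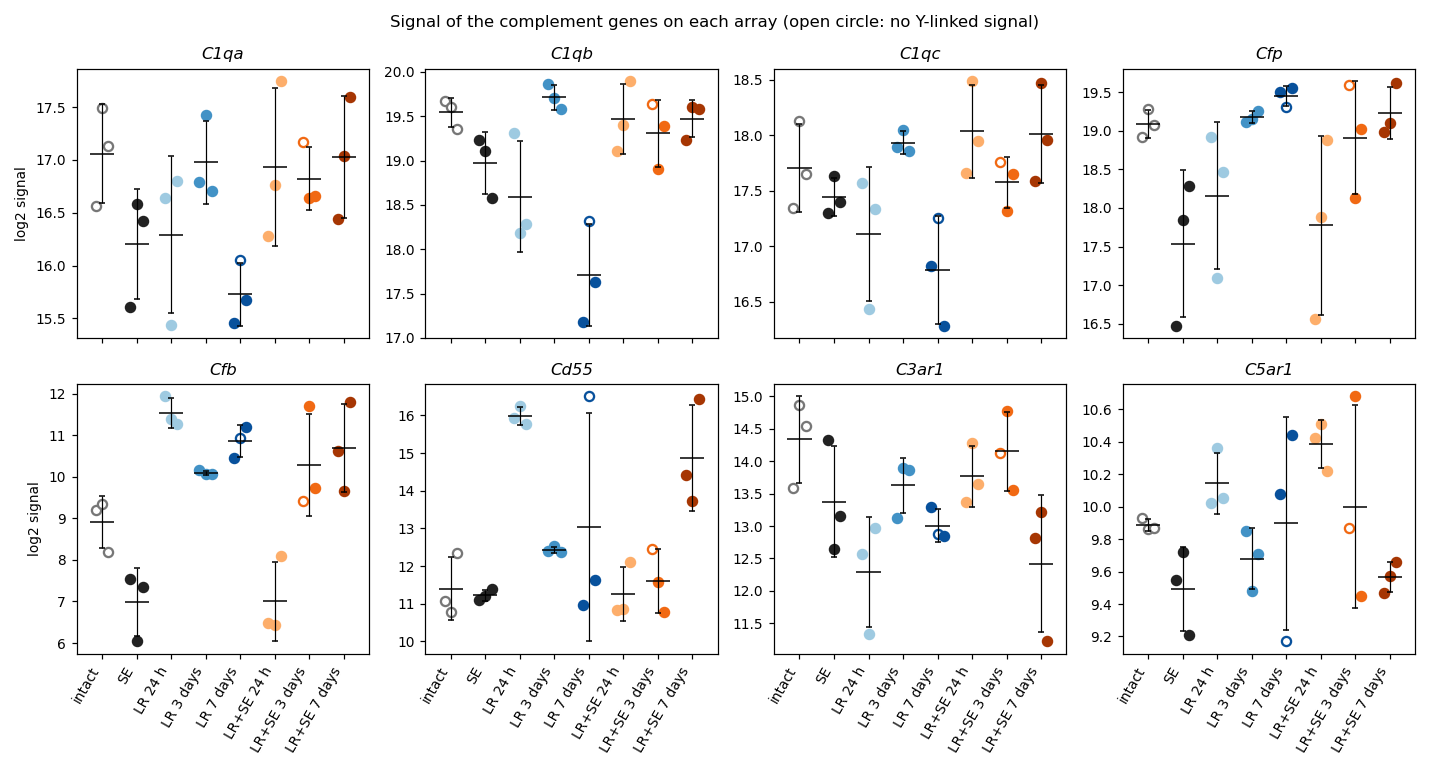
Log2 signal (y axis, a separate scale for each gene) of the 8 complement genes on each of the 24 arrays, by group; horizontal lines are group means and bars 1 SD (n = 3), and open circles mark the 5 arrays without Y-linked signal. Cd55 sits between 15.77 and 16.24 on the LR 24 h arrays, and Cfb between 6.44 and 8.09 on those of LR+SE 24 h, while C1qb reaches 18.32 at most in LR 7 days.

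In the classical pathway C1q is the recognition unit, built from the A, B and C chains that C1qa, C1qb and C1qc encode. All 3 chains had their lowest group mean in LR 7 days, and in splenectomised animals at that time C1qb and C1qc were higher. C1qb read 17.18, 18.32 and 17.63 in LR 7 days and 19.23, 19.60 and 19.58 in LR+SE 7 days, with 19.67, 19.60 and 19.36 in intact and 19.23, 19.11 and 18.58 in SE. Every LR 7 days array was below every array of those 3 other groups. C1qc read 16.82, 17.25 and 16.28 in LR 7 days and 17.59, 18.47 and 17.96 in LR+SE 7 days. C1qa read 15.46, 16.05 and 15.67 against 16.44, 17.04 and 17.60. LR and LR+SE did not overlap for these 3 of the 8 genes, against 14.5% of all clusters.

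In limma the LR+SE minus LR difference at 7 days was 1.76 ± 0.31 for C1qb (adjusted p = 0.0062; standard errors of the fit, 3 arrays a group) and 1.22 ± 0.31 for C1qc (adjusted p = 0.0488). For C1qa it was 1.30 ± 0.41, which did not pass (adjusted p = 0.116, 95% interval 0.46 to 2.15). These were the only 2 of the 8 genes called at that time, against 1.64% of all clusters. The C1qb call held when each array in turn was left out (difference 1.49 to 2.06, adjusted p up to 0.0469), but not in a fit on those 2 groups alone (adjusted p = 0.137), while that of C1qc was lost in 16 of the 24 fits without 1 array (0.97 to 1.45). Without LR 7 days replicate 2, an array without Y-linked signal, 3 of the 8 genes were called (4.9% of all clusters). They included C1qb and Cd55 (described below), so they were not the 3 C1q chains. Without either other array of that group 1 was called.

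Against intact, C1qb fell by 1.84 ± 0.31 in LR 7 days (adjusted p = 0.00494), the only call among the 8 genes there (background 1.00%). The differences of C1qa (-1.33 ± 0.41, adjusted p = 0.126) and C1qc (-0.92 ± 0.31, adjusted p = 0.178) did not pass, although neither overlapped. Groups did not overlap for 6 of the 8 genes there, against 13.2% of all clusters. With Y-linked signal as a block the C1qb difference was -1.37 and its call was lost (adjusted p = 0.1), as it was in a fit on those 2 groups alone (adjusted p = 0.128). Between 3 and 7 days after resection alone C1qb fell by 2.01 ± 0.31 (adjusted p = 0.00363, 1 of 8 called, background 1.57%), a comparison free of the intact arrays (adjusted p = 0.0533 with those 2 groups alone). It read 19.86, 19.71 and 19.58 at 3 days. C1qc fell by 1.15 ± 0.31 over the same interval (adjusted p = 0.0661), and passed once the pair of resection arrays without Y-linked signal was left out (-1.38, adjusted p = 0.025).

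At 24 h C1qb read 19.31, 18.18 and 18.29 in LR, below intact by 0.95 ± 0.31 without passing (adjusted p = 0.069). It then rose by 1.12 ± 0.31 from 24 h to 3 days (adjusted p = 0.0379), together with the Cd55 change below (2 of 8 called, background 5.18%). That rise lost its call in 5 of 24 fits without 1 array (adjusted p up to 0.206). In LR+SE the C1qb means were 19.47 ± 0.40 (SD), 19.31 ± 0.37 and 19.47 ± 0.21 at 24 h, 3 days and 7 days, and no chain was called between these times. Over the mean of the 3 times C1qb was higher in LR+SE than in LR by 0.74 ± 0.18 (adjusted p = 0.0403), but 14 of the 24 fits without 1 array lost this call.

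The response to resection at 7 days itself differed by splenectomy for C1qb: LR+SE minus SE exceeded LR minus intact by 2.33 ± 0.44 (adjusted p = 0.0332, 1 of 8 called, background 0.122%). That difference was 1.86 with the Y-linked block (adjusted p = 0.184), and 10 of 24 fits without 1 array lost the call. The corresponding values were 2.15 ± 0.57 for C1qa (adjusted p = 0.122) and 1.48 ± 0.44 for C1qc (adjusted p = 0.167).

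Markers of other cells moved over the same comparison. Of 8 sinusoidal endothelial markers 6 were higher in LR+SE than in LR at 7 days, with array means of 13.93 to 14.88 against 10.91 to 11.44. None of the 9 Kupffer cell markers was called, with array means of 16.54 to 17.14 against 15.81 to 16.42. The part of cell composition in the C1q differences was not tested. Over the 24 arrays the chains followed each other, with r of 0.81 for C1qb and C1qc, 0.78 for C1qa and C1qc and 0.76 for C1qa and C1qb, and 0.51, 0.61 and 0.46 for deviations from group means. These points share arrays and groups and are a description. With Clec4f, a lectin and 1 of the 9 Kupffer cell markers, r was 0.41 to 0.48, and 0.08 to 0.27 for deviations from group means. Clec4f had means above 19 in some groups, such as intact (19.43), where the scale is compressed. Correlations with the other Kupffer cell markers were not computed. Between LR 7 days and LR+SE 7 days markers of that list went either way, as Folr2 (means 15.48 and 17.81) and Timd4 (14.01 and 13.76).

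At 3 days no C1q difference between LR+SE and LR passed. It was -0.40 for C1qb (95% interval -1.05 to 0.24), -0.36 ± 0.31 for C1qc and -0.15 ± 0.41 for C1qa.

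**Figure D2:**
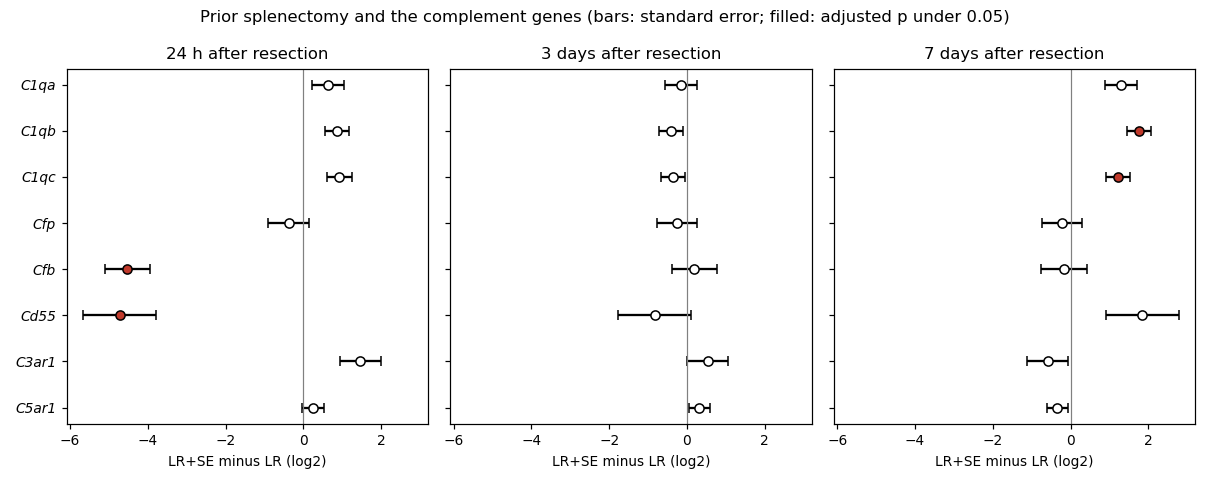
Difference LR+SE minus LR in log2 signal (x axis) for each complement gene at 24 h, 3 days and 7 days after resection, n = 3 arrays per group; bars are standard errors and filled points passed an adjusted p of 0.05. Cfb (-4.53) and Cd55 (-4.72) stand far below 0 at 24 h, and C1qb (1.76) and C1qc (1.22) pass on the other side at 7 days.

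Cfb encodes factor B, the serine protease component of the alternative pathway C3 convertase, which the liver makes in the acute phase. It was called higher than in intact 24 h after resection with the spleen. In LR+SE it was called higher than in SE at 3 and 7 days. In LR 24 h it read 11.94, 11.39 and 11.27, and in LR+SE 24 h 6.47, 6.44 and 8.09. Intact arrays read 9.20, 9.34 and 8.20 and SE arrays 7.55, 6.04 and 7.35. The lowest LR 24 h array thus lay above every intact array, while the LR+SE 24 h arrays overlapped those of SE.

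LR+SE minus LR at 24 h was -4.53 ± 0.58 (adjusted p = 0.000112), with Cfb and Cd55 the 2 of 8 genes called (background 3.26%), and 4 of 8 genes, with C1qc and C3ar1, not overlapping (20.7% of all clusters). Leaving out each array in turn kept this call (-5.08 to -4.25). LR 24 h minus intact was 2.62 ± 0.58 (adjusted p = 0.00653), and 2.03 without a call when Y-linked signal was a block (adjusted p = 0.316). Against SE the 24 h difference after splenectomy was 0.02 ± 0.58 (95% interval -1.19 to 1.23).

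In LR+SE Cfb rose between 24 h and 3 days. It read 9.42, 11.70 and 9.73 in LR+SE 3 days and 10.62, 9.67 and 11.80 in LR+SE 7 days, all above the SE arrays. The rise over SE was 3.30 ± 0.58 at 3 days (adjusted p = 0.00124, 1 of 8 called, background 6.92%) and 3.72 ± 0.58 at 7 days (adjusted p = 0.00215, 1 of 8, background 1.52%). From 24 h to 3 days in LR+SE it was 3.28 ± 0.58 (adjusted p = 0.00545, 1 of 8, background 1.31%). All 3 calls held with each array left out in turn, although the last was lost in a fit on those 2 groups alone (adjusted p = 0.179), and without replicate 2 of LR+SE 3 days the 3-day rise over SE was 2.59.

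With the spleen the later values were 10.16, 10.07 and 10.06 at 3 days and 10.45, 10.94 and 11.20 at 7 days. They exceeded intact by 1.18 ± 0.58 (adjusted p = 0.412) and 1.95 ± 0.58 (adjusted p = 0.117) without passing, although neither group overlapped intact. At both later times LR+SE and LR overlapped, with differences of 0.19 (95% interval -1.02 to 1.40) and -0.17 (-1.38 to 1.04). Over the mean of the 3 times LR+SE minus LR was -1.50 ± 0.34 (adjusted p = 0.0266; 2 of 8 called with C1qb, background 1.52%), a mean carried by the 24 h difference. The difference between the 24 h responses, -2.60 ± 0.82, did not pass (adjusted p = 0.152). Nor did the differences between the responses at 3 days (2.12 ± 0.82, adjusted p = 0.404) and 7 days (1.77 ± 0.82, adjusted p = 0.425). SE itself lay below intact by 1.93 ± 0.58 without passing (adjusted p = 0.136) and without overlap.

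Cfb is also a hepatocyte gene, and hepatocyte markers varied between preparations. At 24 h their array means were 12.11 to 13.30 in LR and 11.22 to 12.15 in LR+SE, with 1 of 11 markers lower and none higher. Those of 6 acute phase genes were 16.84 to 18.06 and 13.26 to 15.57, with 1 of 6 lower. Hepatocyte array means were 8.40 to 9.83 in SE, where Cfb was lowest, and 13.25, 15.62 and 13.35 in LR+SE 3 days, with 10 of 11 markers higher than in SE. In that group Cfb too was highest on the array with the highest hepatocyte mean, at 11.70, as it was in SE, LR 24 h and LR+SE 24 h. In LR 3 days, LR 7 days and LR+SE 7 days the array with the highest hepatocyte mean had the lowest Cfb (10.06, 10.45 and 9.67). In intact it had the middle Cfb value (9.20). Hepatocyte array means were 8.77 to 10.52 in LR 7 days, where Cfb was 10.86 ± 0.38 (SD), and 9.26 to 11.19 in LR+SE 7 days, where it was 10.70 ± 1.07. The part of other cells in the Cfb differences was not tested. C2, the neighbouring classical pathway gene of like function, differed by -1.37 ± 0.42 between LR+SE and LR at 24 h without passing (adjusted p = 0.0879).

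Cfp encodes properdin, which stabilises the alternative pathway convertase. It was not called in any of the 18 comparisons. Its values were tightest in intact (18.92 to 19.28), LR 3 days (19.11 to 19.26) and LR 7 days (19.31 to 19.55). They were wider in SE (16.47, 17.85 and 18.29), LR 24 h (18.92, 17.09 and 18.47) and LR+SE 24 h (16.56, 17.88 and 18.88). SE lay wholly below intact (-1.56 ± 0.52, adjusted p = 0.183), and LR+SE 7 days wholly above SE (1.70 ± 0.52, adjusted p = 0.105), neither of which passed. The high groups are near the top of the scale, where spread and differences are compressed.

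Cd55 encodes decay-accelerating factor, a membrane protein that dismantles C3 convertases on the cell's own surface. Its group mean was more than 4 log2 units higher 24 h after resection with the spleen than in intact mice or at the same time after splenectomy. It read 15.93, 16.24 and 15.77 in LR 24 h, 11.07, 10.79 and 12.35 in intact, 10.83, 10.85 and 12.10 in LR+SE 24 h and 11.09, 11.20 and 11.38 in SE. The LR 24 h arrays stood above all arrays of the other 3 groups by more than 3 log2 units.

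The rise over intact was 4.57 ± 0.94 (adjusted p = 0.00377), and with Cfb and C3ar1 it made 3 of 8 genes called (background 7.59%, 3.47% higher and 4.12% lower). Groups did not overlap for 6 of the 8, against 23.7% of all clusters. With the Y-linked block it was 7.82 (adjusted p = 0.000635), a value that rests on the high Cd55 of LR 7 days replicate 2 described below. LR+SE minus LR was -4.72 ± 0.94 (adjusted p = 0.00569), kept in every fit without 1 array (-5.14 to -4.51). LR+SE 24 h minus SE was 0.04 (95% interval -1.92 to 2.00).

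The difference between the 24 h responses was -4.54 ± 1.33 and missed the threshold (adjusted p = 0.121). Its size rests on 12 arrays, but its error on all 24. LR 7 days replicate 2, which also lacked Y-linked signal, read 16.51 against 10.96 and 11.63 on the other 2 arrays of its group, and without that array the same difference passed (-4.54, adjusted p = 0.00893). That array is not part of the difference and was singled out by its Cd55 value, so the lower p is no separate support.

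By 3 days with the spleen Cd55 had fallen by 3.55 ± 0.94 from 24 h (adjusted p = 0.0308) to 12.40, 12.53 and 12.38, a call lost in 6 of the 24 fits without 1 array (adjusted p up to 0.115). After splenectomy it read 12.46, 11.59 and 10.77 at 3 days and 14.43, 13.74 and 16.44 at 7 days. The 7-day arrays all lay above those of SE and of LR+SE 3 days. The difference from SE, 3.65 ± 0.94, just missed the threshold (adjusted p = 0.0535), and that from LR+SE 3 days, 3.27 ± 0.94, missed it too (adjusted p = 0.115). Leaving out the 2 resection arrays without Y-linked signal gave 3.65 (adjusted p = 0.00102) and 3.69 (adjusted p = 0.00257). The first difference contains neither array, and its size did not change. Of the arrays left out, LR 7 days replicate 2 is the outlying Cd55 array above, so these lower p-values are no separate support.

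At 7 days the single high array decided the comparison of LR+SE with LR. The difference was 1.84 ± 0.94 with all arrays (adjusted p = 0.423) and 3.58 without LR 7 days replicate 2 (adjusted p = 0.00199). LR 7 days minus intact likewise went from 1.63 to -0.11 (adjusted p = 0.959), a change of sign.

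Cd55b behaved as Cd55 did. It read 17.89, 18.33 and 17.84 in LR 24 h and 13.41, 14.40 and 13.94 in LR+SE 24 h, and 12.50, 12.23 and 13.82 in intact. Its rise over intact was 5.17 ± 0.99 (adjusted p = 0.0022) and its LR+SE minus LR difference at 24 h -4.10 ± 0.99 (adjusted p = 0.0234). On LR 7 days replicate 2 it read 17.67 against 11.56 and 12.65. Over the 24 arrays r between the pair was 0.95, and 0.96 for deviations from group means.

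Sinusoidal endothelial markers were also higher at 24 h with the spleen, at 14.25 to 14.66 against 12.77 to 13.26 after splenectomy (2 of 8 lower in LR+SE), and 12.13 to 13.86 in intact. Neutrophil markers were at 5.13 to 6.40 in intact, 10.13 to 11.28 in LR 24 h (7 of 11 higher) and 12.36 to 12.71 in LR+SE 24 h (2 of 11 higher than in LR 24 h). Their part in the Cd55 difference was not tested.

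**Figure D3:**
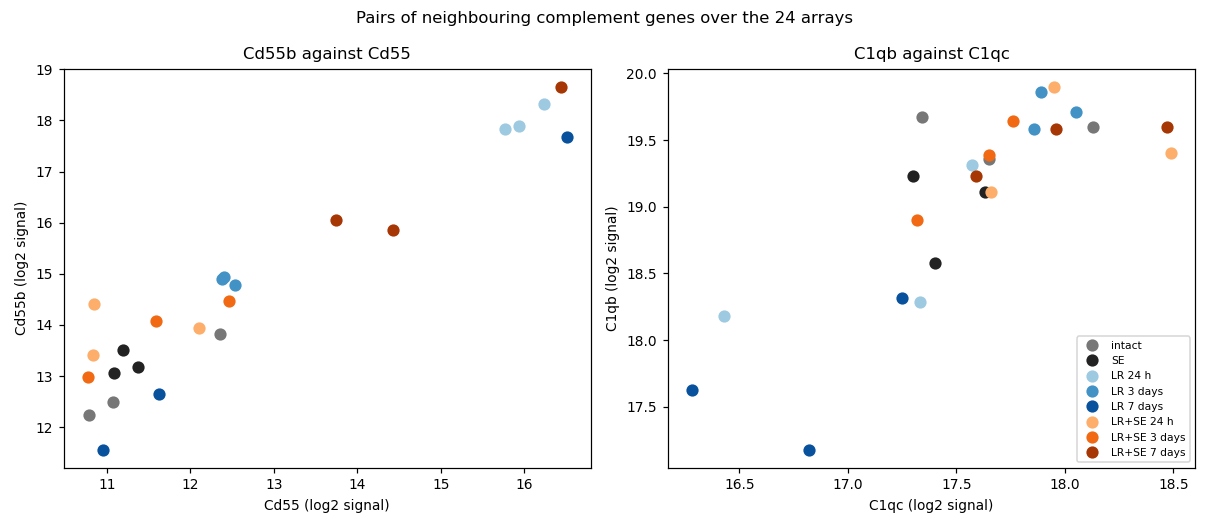
Log2 signal of Cd55b against Cd55 (left) and of C1qb against C1qc (right) on each of the 24 arrays, coloured by group. The LR 24 h arrays, 1 LR 7 days array and the highest LR+SE 7 days array form the top right of the left panel, and LR 7 days and LR 24 h arrays reach farthest to the bottom left of the right panel.

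C3ar1 encodes the receptor of C3a. It read 12.57, 11.34 and 12.97 in LR 24 h against 13.59, 14.87 and 14.55 in intact, without overlap. It fell by 2.04 ± 0.52 (adjusted p = 0.0172). The call was lost with the Y-linked block (-2.16, adjusted p = 0.213), and without intact replicate 2 or 3 or LR 24 h replicate 2 (-2.41 to -1.56 over the fits without 1 array, adjusted p up to 0.127). Of 9 Kupffer cell markers 3 fell in the same comparison, with array means of 14.65 to 16.28 against 16.99 to 17.43. Within LR 24 h the array with the lowest C3ar1, replicate 2, also had the lowest Kupffer cell mean of its group. The reverse held within LR+SE 3 days, where replicate 2 had the lowest Kupffer cell mean (14.24) and the highest C3ar1 (14.77). The part of Kupffer cell content in the C3ar1 fall was not tested.

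After splenectomy C3ar1 read 13.37, 14.28 and 13.65 at 24 h, wholly above LR 24 h by 1.47 ± 0.52 without passing (adjusted p = 0.148). It read 12.82, 13.22 and 11.22 in LR+SE 7 days, below LR+SE 3 days (14.12, 14.77 and 13.56) (difference -1.73 ± 0.52, adjusted p = 0.137) without passing and without overlap. C3ar1 and Cd55 ran in opposite directions over the 24 arrays (r = -0.68), but only weakly within groups (-0.27).

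C5ar1, the receptor of C5a, had the narrowest range of group means among the 8 genes, from 9.49 in SE to 10.38 in LR+SE 24 h, and was never called. Its 3 values in LR+SE 24 h (10.42, 10.51 and 10.22) lay above those of SE (9.55, 9.72 and 9.21) by 0.89 ± 0.28 without passing (adjusted p = 0.151). Between LR+SE and LR the 95% intervals were -0.35 to 0.83 at 24 h, -0.27 to 0.91 at 3 days and -0.93 to 0.26 at 7 days. Single arrays spread most in LR 7 days, where replicate 2 read 9.17 against 10.08 and 10.44, and in LR+SE 3 days, where replicate 2 read 10.68 against 9.87 and 9.45.

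Splenectomy alone moved none of the 8 genes past the threshold in limma (background 0.554%). At an unadjusted p under 0.05 there were 3, C1qa, Cfb and Cfp, all lower in SE, and the methods' t-test with Benjamini-Hochberg adjustment called none. Groups did not overlap for 4 of the 8 genes, against 16.9% of all clusters. Every intact array lacked Y-linked signal and every SE array had it, so splenectomy and that signal cannot be told apart between these groups. At 3 days none of the 8 passed between LR and intact (background 2.36%, and 0 at an unadjusted p under 0.05), with 3 of 8 not overlapping (20.4% of clusters). None passed between LR+SE and LR at that time (background 0.126%, 0 unadjusted). Nor did any pass between LR+SE 24 h and SE (background 1.33%, 1 unadjusted, C5ar1), or between LR+SE 7 days and LR+SE 3 days (background 1.36%, 2 unadjusted, Cd55 and C3ar1). The methods' test called none in these comparisons either, and of the pairwise calls above it kept only that of Cd55 between 24 h and 3 days in LR (adjusted p = 0.0265). The differences between the 24 h responses (background 0.684%) and the 3-day responses (background 0.513%) gave no call, with 6 and 1 unadjusted. The share of all clusters at an unadjusted p under 0.05 was not computed. No unadjusted count, here or below, therefore has a background to be read against.

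In the order of group means most neighbouring groups did not differ beyond their spread. For Cd55 the order ran from LR 24 h (15.98 ± 0.24, SD) through LR+SE 7 days (14.87 ± 1.40), LR 7 days (13.03 ± 3.03), LR 3 days (12.43 ± 0.08), LR+SE 3 days (11.61 ± 0.84), intact (11.40 ± 0.83) and LR+SE 24 h (11.26 ± 0.72) to SE (11.22 ± 0.14). For Cfb it ran from LR 24 h (11.53) through LR 7 days, LR+SE 7 days, LR+SE 3 days and LR 3 days (10.86 to 10.10) to intact (8.91), and ended with LR+SE 24 h (7.00) and SE (6.98), the last pair being indistinguishable. For C1qb all groups but LR 24 h (18.59), SE (18.98) and LR 7 days (17.71) had means between 19.31 and 19.72.

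Of 11186 genes with a mean above background, those whose signal followed each complement gene most closely over the 24 arrays were sought by Pearson's r. For C1qa they were Pepd (0.84), Cd53 (0.83) and Fcgrt (0.82), for C1qb Fcgrt, Med24 and Selplg (0.89 each), and for C1qc Ctns (0.89), Ctsa and Rasgrp2 (0.85 each). For Cfb they were Ccdc86 (0.86), Cox5b and Nupr1 (0.82 each), and for Cfp Ly96 (0.91), Emc2 and Mrpl42 (0.90 each). For Cd55 they were Cd55b and Procr (0.95 each) and Irak3 (0.92). For C5ar1 they were Ddit4, Psen2 and Runx3 (0.78 each), and for C3ar1 Litaf (0.80), Colec12 and Tgfbi (0.75 each). The points are arrays of 8 groups, so groups as well as single arrays set these values.

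Of the 46 other complement genes 8 were called 24 h after resection with the spleen (background 7.59%), 6 higher (3.47%) and 2 lower (4.12%), with a median over the list of 0.16 against 0.01 over all clusters. Itgam, the alpha chain of complement receptor 3 and a marker of myeloid cells, rose by 8.61 ± 1.15 (adjusted p = 9.93e-05), from 5.23, 7.67 and 8.01 to 14.53, 16.49 and 15.73. Cd93, once described as a C1q receptor, rose by 5.44 ± 0.73, Cd55b by 5.17 ± 0.99, Vtn, an inhibitor of the membrane attack complex, by 2.56 ± 0.77, C8a by 2.25 ± 0.32 and the lectin Mbl1 by 1.24 ± 0.36. C4a (-1.92 ± 0.41) and the terminal component C6 (-1.83 ± 0.53) fell. Itgam stayed higher at 3 days (5.60 ± 1.15, the 1 call of 46, background 2.36%), a call lost with the Y-linked block (6.65, adjusted p = 0.0574) and without intact replicate 1 (4.73, adjusted p = 0.0561), and at 7 days Cd59a, which blocks the membrane attack complex, was lower (-3.94 ± 0.72, 1 of 46, background 1.00%). The Cd59a call was lost with the Y-linked block (-2.53, adjusted p = 0.144), in a fit on those 2 groups alone (adjusted p = 0.178), and without intact replicate 1 or 3 (-3.75 and -3.63) or LR 7 days replicate 3 (-3.16, adjusted p = 0.0521). With the Y-linked block Cd55b, Cd93, C8a and Itgam kept their calls at 24 h, and C4a, C6, Mbl1 and Vtn did not. The 24 h calls of Vtn, Mbl1 and C6 were also lost in a fit on LR 24 h and intact alone. Several fits without 1 array lost them too (adjusted p up to 0.243, 0.199 and 0.23). Mbl1 read 2.98, 3.68 and 3.82 and C8a 4.16, 4.03 and 3.54 in intact, near the background of 3.69. Monocyte markers (3 of 7 higher, 9.96 to 10.44 against 6.49 to 6.91) and neutrophil markers (7 of 11 higher, 10.13 to 11.28 against 5.13 to 6.40) rose in the same 24 h comparison, and their part was not tested.

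At 3 days after resection in splenectomised animals 17 of the 46 genes were higher than in SE and none lower (background 5.12% higher and 1.79% lower; median 0.59 against -0.04). Those with the largest rises were Clu (7.00 ± 0.94), Vtn (5.95 ± 0.77), C4bp (5.34 ± 0.82), the C3b-cleaving protease Cfi (4.90 ± 0.65), the C1 inhibitor Serping1 (4.84 ± 0.64), the lectin pathway protease Masp2 (4.32 ± 0.68), Hc, which encodes mouse C5 (3.80 ± 0.55), and Cfhr2 (3.60 ± 0.74). Most of these are made chiefly by hepatocytes. Hepatocyte markers moved with them: 10 of 11 rose, and their array means were 13.25, 15.62 and 13.35 against 8.40 to 9.83 in SE. Hc read 3.13, 3.24 and 4.10 in SE, near the background of 3.69. It read 6.80, 8.94 and 6.12 in LR+SE 3 days, and was highest on the array richest in hepatocyte markers, as were Clu (14.06, 17.77 and 14.06) and Cfi (9.75, 11.48 and 8.72). Without that array 13 of 46 were called, and C1s1, C8b, C8g and Cd93 were not. The part of hepatocyte RNA was not tested. By 7 days 11 of the genes had fallen from the 3-day level (background 1.36%), 7 without that array, and none passed against SE (background 1.52%, 7 at an unadjusted p under 0.05, and none by the methods' test).

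Against LR at the same time, LR+SE had 4 of 46 called at 24 h (background 3.26%): Cd55b, Cd93 (-2.67 ± 0.73) and C8a (-1.57 ± 0.32) lower, and the ficolin Fcnb (1.29 ± 0.25) higher. Fcnb read 3.45, 3.84 and 3.82 in LR 24 h and 3.68, 3.79 and 4.13 in SE, near the background signal of 3.69. Its mean over the 24 arrays was 3.78. At 3 days Hc (3.19 ± 0.55) and C8a (1.65 ± 0.32) were higher (background 0.126%), and neither was called without replicate 2 of LR+SE 3 days. At 7 days Masp1, a lectin pathway protease, was higher by 3.03 ± 0.40 (adjusted p = 0.000969) at 10.41, 11.17 and 10.01 against 8.15, 7.28 and 7.08, and Cd59a by 3.44 ± 0.72 (adjusted p = 0.0167) at 9.80, 11.66 and 9.70 against 6.87, 8.57 and 5.39 (2 of 46, background 1.64%). Neither pair of groups overlapped, and the sinusoidal endothelial markers given above were higher in the same arrays. Over the mean of the 3 times Masp1 (1.37 ± 0.23), C1ra (0.66 ± 0.15) and Fcnb (0.63 ± 0.15) were higher (3 of 46, background 1.52%). The call of C1ra was lost in 10 of the 24 fits without 1 array, LR+SE 3 days replicate 2 among them (0.59, adjusted p = 0.0531), and that of Fcnb in 6. For splenectomy alone none of the 46 passed (background 0.554%, 12 at an unadjusted p under 0.05, and none by the methods' test). SE and intact did not overlap for 15 of the 46, against 16.9% of all clusters, and these groups also differ in Y-linked signal. At 24 h after splenectomy and resection only Fcnb passed against SE (1.13 ± 0.25, 1 of 46, background 1.33%).

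**Figure D4:**
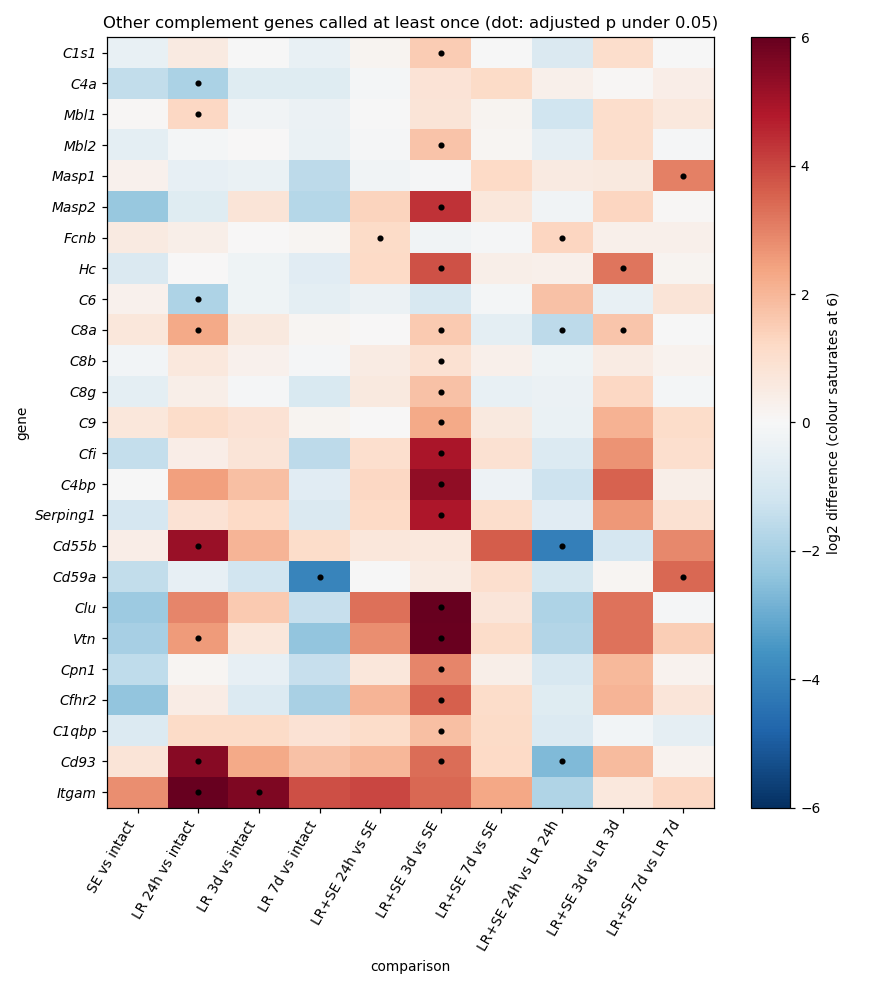
Log2 differences (colour, saturating at 6) of the other complement genes called at least once in the 10 comparisons shown, genes in rows and comparisons in columns, n = 3 arrays per group; dots mark an adjusted p under 0.05. The LR+SE 3 days against SE column holds 17 dots, and Masp1 and Cd59a carry those of LR+SE against LR at 7 days.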

How the data were processed

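RNA of F4/80-positive liver cells was hybridised to 24 one-colour Clariom S arrays. The deposited log2 values had been made by the authors with RMA in the Transcriptome Analysis Console (variant, versions and genome build are not given in the sources used here), with 1 value per array and cluster. The table held 28846 entries. Leaving out 6640 control probesets gave 22206 tested clusters, of which 19572 had 1 gene symbol and 2634 none. Raw scans and scan dates were not used here, and the number of arrays limits the precision. Background was 3.69, the 95th percentile of the means of 1080 odorant receptor clusters.

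Groups came from the sample labels. A linear model with 1 mean per group was fitted to all 24 arrays with limma 3.58.1 in R 4.3.3 (residual degrees of freedom 16, prior 4.23). In all 18 comparisons were made: splenectomy alone, each resected group against its control, LR+SE minus LR per time point and averaged, successive times, and the difference between responses, (LR+SE minus SE) minus (LR minus intact). A call was a Benjamini-Hochberg adjusted p under 0.05 over all clusters. The smallest exact permutation p for 3 against 3 arrays is 0.1, so calls rest on the pooled spread. Comparisons share groups and are not independent. The fit was tested on simulated data. Sequences were copied from RefSeq (GRCm38.p6), and figures drawn with matplotlib 3.10.9 in python 3.11.15.

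All 9 complement genes were to be described. Of the other complement genes up to 8 called per comparison were named by size, and 3 similar genes for each. Genes and lists were chosen with earlier results of these data known. Alternatives were other normalizations, filters, variance models, samples, blocks (replicate number, Y-linked signal), a mean over clusters of a symbol, the methods' t-test, and leaving out arrays.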

Additional observations from a re-analysis of the deposited data

Results flagged for a closer look

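The 6 differences below, between the responses to resection with and without prior splenectomy, passed their own test in limma (n = 3 arrays per group). For C1qb at 7 days the response after splenectomy minus that with the spleen was 2.33 ± 0.44 (adjusted p = 0.0332). C1qb fell with the spleen (-1.84 in LR), and in LR+SE it changed by 0.49 without passing (adjusted p = 0.52). At 24 h the response of C8a was smaller after splenectomy by 2.24 log2 units (-2.24 ± 0.45, adjusted p = 0.0283). C8a read 4.16, 4.03 and 3.54 in intact, near the background of 3.69. At 3 days the responses of 4 genes that hepatocytes express were larger after splenectomy, by 4.05 ± 0.78 for Hc (adjusted p = 0.0183), 4.14 ± 0.92 for Cfi (adjusted p = 0.0448), 5.25 ± 1.09 for Vtn (adjusted p = 0.0293) and 3.46 ± 0.75 for Cpn1 (adjusted p = 0.0408). In the same comparison 6 of 11 hepatocyte markers passed, with a median difference of 4.61. Hc read 3.13, 3.24 and 4.10 in SE, near the background of 3.69. Without replicate 2 of LR+SE 3 days Hc alone of the 4 kept its call (3.22, adjusted p = 0.0246). With Y-linked signal as a block all 6 calls were lost, and the values kept their signs.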

How the results depend on the processing

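In 34 alternatives, 24 of them leaving out 1 array, none of the 17 called values of the 8 genes, nor of the 70 of the other complement genes, changed sign. The cause of changes in calls was not tested. Fits on only the groups compared, and the methods' t-test, use fewer arrays for the spread. The number of the 8 genes called, here and in the paragraphs below, moved as follows. The share of all clusters called moves with the setting too, as it did above at 7 days without LR 7 days replicate 2. These counts are given without that share and are not a result about the 8 genes. With the Y-linked block it was 1 for LR 24 h and 1 for LR 3 days against intact, 0 for LR 7 days against intact, 2 for LR+SE 7 days against SE, 2 for LR 7 days against 3 days, 1 for LR+SE 7 days against 3 days, and 1 and 0 for the differences of responses at 24 h and 7 days. Without the 2 resection arrays lacking Y-linked signal it was 2 for LR+SE 7 days against SE, 2 for LR 7 days against 3 days, 1 for LR+SE 7 days against 3 days, and 1 and 2 for those differences of responses. By the methods' t-test with Benjamini-Hochberg adjustment it was 1 for LR 3 days against 24 h and 0 for LR 24 h and 7 days against intact, LR+SE 3 and 7 days against SE, LR+SE against LR at 24 h and 7 days, LR 7 days against 3 days and LR+SE 3 days against 24 h, and it was not run for the mean of 3 times or the differences of responses. On only the groups compared it was 0 for LR 7 days against intact, LR+SE against LR at 7 days, LR 7 days against 3 days, LR+SE 3 days against 24 h and the 7-day difference of responses, 1 for the mean of 3 times and the 24 h difference, and 2 for LR+SE 7 days against SE. With trend and robust variance it was 1 for LR+SE against LR at 7 days, 1 for the mean of 3 times, 1 for LR 3 days against 24 h and 0 for the 7-day difference. Median centring gave 1 for LR+SE against LR at 7 days, quantile normalization 2 for LR 7 days against 3 days, and a filter on clusters above background 2 for LR+SE 7 days against SE.

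Leaving out each array in turn gave 2 to 4 calls for LR 24 h, 0 to 0 for LR 3 days and 1 to 1 for LR 7 days against intact, 0 to 0 at 24 h, 1 to 1 at 3 days and 1 to 2 at 7 days for LR+SE against SE, 2 to 3, 0 to 0 and 1 to 3 for LR+SE against LR at the 3 times and 0 to 3 for their mean, 0 to 2 for LR 3 days against 24 h, 1 to 2 for LR 7 days against 3 days, 1 to 1 and 0 to 1 for the successive times of LR+SE, and 0 to 1, 0 to 0 and 0 to 3 for the differences of responses. Cd55 in LR 7 days against intact, not called, reversed from 1.63 to -0.11 without LR 7 days replicate 2, and to -0.11 without the 2 resection arrays lacking Y-linked signal (-0.11 to 2.66 over the fits without 1 array).

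Same-numbered arrays did not deviate together (median r -0.01, other numbers -0.02, lowest -0.55, over 2000 clusters), so they share only a number. With the replicate block the count was 1 for LR+SE against LR at 7 days, 1 for the mean of 3 times, 1 for LR 3 days against 24 h and 0 for the 7-day difference of responses.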
